A study of Mus musculus with 24 samples.

Results

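In CD8 T cells of mice with melanoma, 175 regions away from gene ends ranked among the strongest 14000 peaks of most tumor libraries. They did so in no lymph node library used. They were 0.931% of the 18787 distal regions and came from 28552 regions in all. A region was a window reaching 250 bp to each side of a peak summit, and it was distal when its center lay over 1 kb from both ends of every protein-coding gene. A member had a peak among the strongest 14000 in 7 or more of 12 tumor lists, including 2 or more of the 3 lists of tumor DN cells, and in none of 6 lymph node lists. The members were thus chosen by the presence and rank of peaks in these same lists, so higher rank in tumor than in node is the selection and not a result.

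Sorted CD8 T cells had been profiled by bulk Omni-ATAC, an assay that reads out open chromatin from where the Tn5 transposase can cut. All groups came from C57BL/6 mice with the alleles Lag3-iCreERT2 and Rosa26-LSL-tdTomato that carried B16-F10 melanoma, a mouse skin tumor line. Tamoxifen (2 mg) was given on days 8 to 10 after implantation and tissue was taken on day 19, so a cell that expressed Lag3 in the tamoxifen window kept the red tdTomato label. The Cre is driven by Lag3, which limits the label to cells that expressed Lag3 while tamoxifen was active. DN cells were LAG3- tdTomato- and DP cells were LAG3+ tdTomato+. Libraries named LAG3_SP are described as LAG3- tdTomato+, and those named TDT_SP as tdTomato+ with no LAG3 state. The name LAG3_SP and its description do not match. Groups are therefore called by their library names. Both the LAG3 and the tdTomato state of LAG3_SP are taken as unknown, as is the LAG3 state of TDT_SP. The tumor gave 3 libraries each of DN, DP, LAG3_SP and TDT_SP cells with lists long enough to use. Nodes draining the tumor (DLN) and other nodes (NDLN) gave 1 each of DN, LAG3_SP and TDT_SP. Tumors were digested with enzymes and nodes were not stated to be, so tissue and preparation cannot be told apart. Whether replicates are separate animals is not stated, so p-values measure only the spread between these libraries, and every library carried the same batch name.

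Open chromatin away from gene ends often marks enhancers, stretches of DNA where transcription factors bind and raise the expression of a gene at a distance. In T cells, stimulation through the antigen receptor opens many such sites through AP-1 family factors and NFAT. ETS and RUNX factors hold open the sites that give the lineage its identity. T cells in tumors meet antigen for long periods and are known for enhancer sets that differ from those of resting lymph node cells.

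The sequence under the members can be shown only where a promoter table covers it. RefSeq promoter segments (build GRCm38.p6, 300 bases each, 250 before and 50 after an annotated start) overlapped 22 of the 175 members, since a start inside a gene or a noncoding RNA start may lie far from protein-coding gene ends. The segments below are those of the 5 members whose promoter segment holds the AP-1 letters TGANTCA, which lie inside the member window in all 5. Capitals mark the AP-1 letters and, where present, the ETS letters AGGAAG or the RUNX letters TGTGGT on either strand.
Lmna, chr3:88503303-88503602, minus strand: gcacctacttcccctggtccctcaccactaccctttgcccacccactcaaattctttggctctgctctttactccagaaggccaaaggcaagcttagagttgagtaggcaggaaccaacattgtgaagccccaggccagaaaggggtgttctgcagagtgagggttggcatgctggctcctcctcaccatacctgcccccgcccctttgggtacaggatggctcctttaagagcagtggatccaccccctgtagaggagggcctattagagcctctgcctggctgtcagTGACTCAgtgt
Gm33315, chr13:52829022-52829321, plus strand: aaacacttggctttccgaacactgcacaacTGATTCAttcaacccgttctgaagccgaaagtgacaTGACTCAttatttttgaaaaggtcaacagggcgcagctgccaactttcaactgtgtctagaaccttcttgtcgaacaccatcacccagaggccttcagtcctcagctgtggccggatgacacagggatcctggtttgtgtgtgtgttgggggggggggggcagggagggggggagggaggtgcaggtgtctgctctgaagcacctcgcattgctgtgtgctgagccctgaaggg
Gm30368, chr15:78927946-78928245, minus strand: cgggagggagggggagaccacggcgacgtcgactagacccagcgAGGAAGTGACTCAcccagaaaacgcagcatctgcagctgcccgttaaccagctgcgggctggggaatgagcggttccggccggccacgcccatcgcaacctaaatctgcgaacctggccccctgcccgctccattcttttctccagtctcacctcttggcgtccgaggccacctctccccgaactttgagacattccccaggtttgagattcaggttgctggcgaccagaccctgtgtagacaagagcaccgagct
Morrbid, chr2:128429302-128429601, minus strand: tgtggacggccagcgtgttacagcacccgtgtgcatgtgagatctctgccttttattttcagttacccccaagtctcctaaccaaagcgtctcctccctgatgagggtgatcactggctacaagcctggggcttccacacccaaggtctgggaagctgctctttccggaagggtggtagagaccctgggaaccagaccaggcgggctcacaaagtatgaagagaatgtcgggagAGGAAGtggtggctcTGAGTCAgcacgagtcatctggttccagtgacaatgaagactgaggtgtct
Plppr2, chr9:21936760-21937059, plus strand: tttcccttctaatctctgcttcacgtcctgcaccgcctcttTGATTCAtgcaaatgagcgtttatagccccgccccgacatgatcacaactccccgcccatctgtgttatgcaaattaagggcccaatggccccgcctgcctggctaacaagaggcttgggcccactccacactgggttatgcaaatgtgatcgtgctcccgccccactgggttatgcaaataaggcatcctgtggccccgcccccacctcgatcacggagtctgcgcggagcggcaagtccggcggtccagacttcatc

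Lmna makes the nuclear lamina proteins lamin A and C, and its AP-1 letters lie at the very end of the segment, at base 290. The window at Gm33315, a noncoding RNA 5.98 kb from Auh, holds 2 matches. At Gm30368, a noncoding RNA whose start lies at Lgals1, the galectin-1 gene, the ETS letters and the AP-1 letters adjoin with no base between them. Morrbid is a long noncoding RNA known for restraining the cell death gene Bcl2l11, and its segment also holds both motifs. Over the promoter segments of the 22 members, AP-1 letters were found in 22.7%, against 7.81% of all 32851 promoter segments. ETS letters were found in 45.5% of the 22 segments against 35.4%, and RUNX letters in 22.7% against 16.8%. The NFAT letters TGGAAA were found at 9.09% against 21.4%. The GC box GGGCGG was found at 63.6% against 35.7%. Both strands were searched, and the ETS and NFAT letters share the bases GGAA. Some members overlap more than 1 segment (28 segments in all), and only the segment with the largest overlap was counted for each. Whole segments were searched, and only the AP-1 letters were checked to lie inside the member window, so the other letters may lie outside it. These shares are descriptions of 22 segments.

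The label of the set, regions found in tumor only, did not hold beyond the strongest 14000 peaks. Of the 175 members, 169 (96.6%) had a weaker peak in at least 1 of the 6 node lists. Among distal regions with no kept node peak and 2 to 6 tumor lists, the share with a weaker node peak was 70.8%, and in the wider set of 523 regions described further on, which leaves out the DN condition and holds the members, it was 81.6%. Of all distal regions, which include those with a kept node peak, 92.4% had a node peak at any rank. At any rank, 120 members had a peak in DLN DN (68.6%, against 75.3% of all distal regions) and 135 in DLN LAG3_SP (77.1% against 78.2%). There were 108 in DLN TDT_SP (61.7% against 71.5%), 102 in NDLN DN (58.3% against 73.2%) and 146 in NDLN TDT_SP (83.4% against 79.7%). NDLN LAG3_SP had a peak at 2 members, but that list ends at 14244 peaks and so holds almost nothing below the threshold. Where the 5 longer node lists were read to the same length, 29857 peaks, a check chosen after seeing the data, the counts were 95, 126, 108, 92 and 139 in the same order. The members are therefore regions that stood higher in tumor lists than in node lists, and they are described as tumor-ranked regions here.

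**Figure D1:**
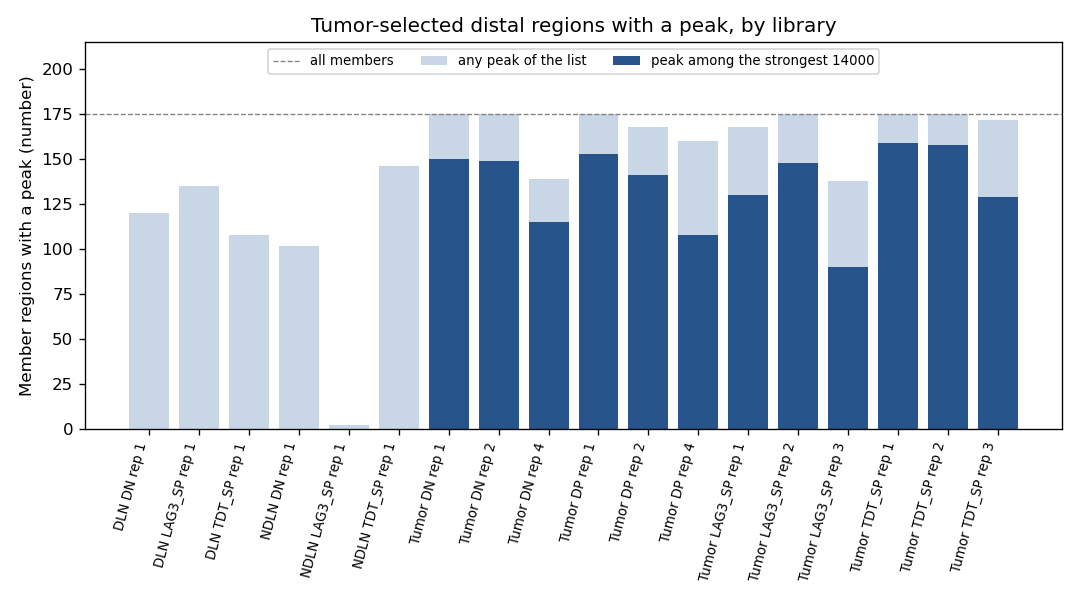
Number of the 175 members with a peak in each of the 18 libraries used, among the strongest 14000 peaks (dark bars) and in the whole list (light bars), with all members as the dashed line. The node bars hold no dark part by the selection, while the light parts reach 146 in NDLN TDT_SP and 2 in NDLN LAG3_SP.

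Positions in the node lists show how near the threshold the members lay. The median position of their node peaks was 23928 in DLN DN, 20930 in DLN LAG3_SP, 21269 in DLN TDT_SP, 22595 in NDLN DN and 19877 in NDLN TDT_SP, where 1 is the strongest. In tumor the medians ran from 9386 in LAG3_SP replicate 1 to 11839 in DN replicate 1. For 38 members the best node position lay between 14000 and 15000, just outside the peaks kept. Just inside, 60 distal regions met the tumor conditions and had their best node peak in the last 1000 positions up to 14000. Their mean rank value over the tumor libraries had a median of 0.233, and that of the 38 members was 0.193. A rank value is 1 for the strongest kept peak of a library, falls evenly to near 0 for peak 14000, and is 0 where a library has no kept peak. Over all 175 members the mean rank value over the tumor libraries had a median of 0.216. It was higher, 0.428, for the 5009 distal regions that met the tumor conditions and had a kept node peak. For the 1786 distal regions kept in all 18 lists it was 0.665. On the other side of the rule, 30 members had exactly 7 tumor lists, with a median rank value of 0.119, and 31 regions with 6 tumor lists had 0.0839.

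**Figure D2:**
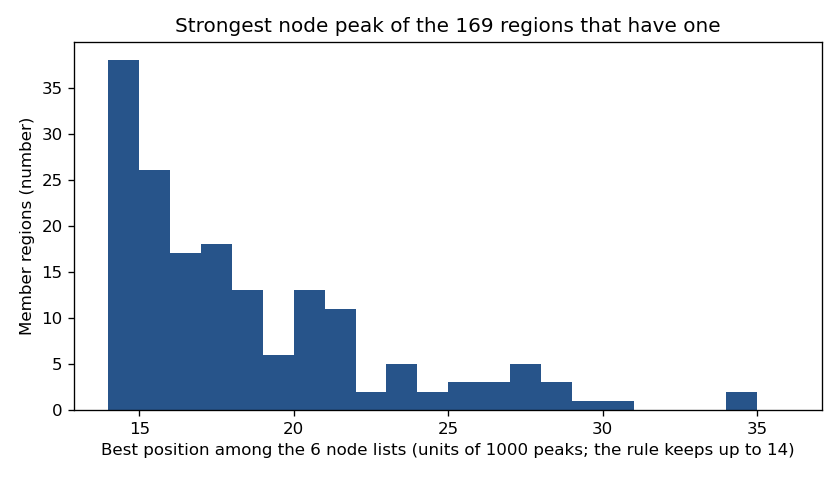
Best position of each member among the 6 node lists, in bins of 1000 peaks, for the 169 members that have a node peak. The bin up to 15000, next to the threshold, holds 38 members.

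Only 6 members had no peak at any rank in the 6 node lists. They are described for that reason, after their values were seen, and lie near Lgals3 and inside Katnal1, Gnas, Phc3, Srbd1 and Tex14. Galectin-3, made by Lgals3, is a sugar-binding protein of activated and phagocytic cells. Its region (chr14:47361387-47361887, 12.22 kb outside the gene) had rank values of 0.074, 0.214 and 0 in the DN libraries, 0.546, 0.53 and 0.128 in DP, 0.839, 0.656 and 0.087 in LAG3_SP, and 0.12, 0.354 and 0.185 in TDT_SP. The highest values were in DP and LAG3_SP, but the last library of each lay below the highest TDT_SP value, so the groups overlapped. A second member at chr14:47361948-47362448 shared the same broad peaks in nearly every library, so the pair is 1 open stretch, and the second window had a peak at position 28317 of DLN TDT_SP. Inside Katnal1, a gene of microtubule severing, the region at chr5:148912118-148912618 had 0.688, 0.448 and 0.504 in DP, 0.211, 0.446 and 0.075 in LAG3_SP and 0.01, 0 and 0 in TDT_SP. DP and TDT_SP did not overlap there, and limma gave a difference of 0.543 (SE 0.121, adjusted p = 0.118). Gnas, which encodes the stimulatory G protein subunit that raises cyclic AMP, held its region at chr2:174333488-174333988, with a mean of 0.227 over the 12 tumor libraries. These 6 are few, and NDLN LAG3_SP cannot count against them at its length.

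**Figure D3:**
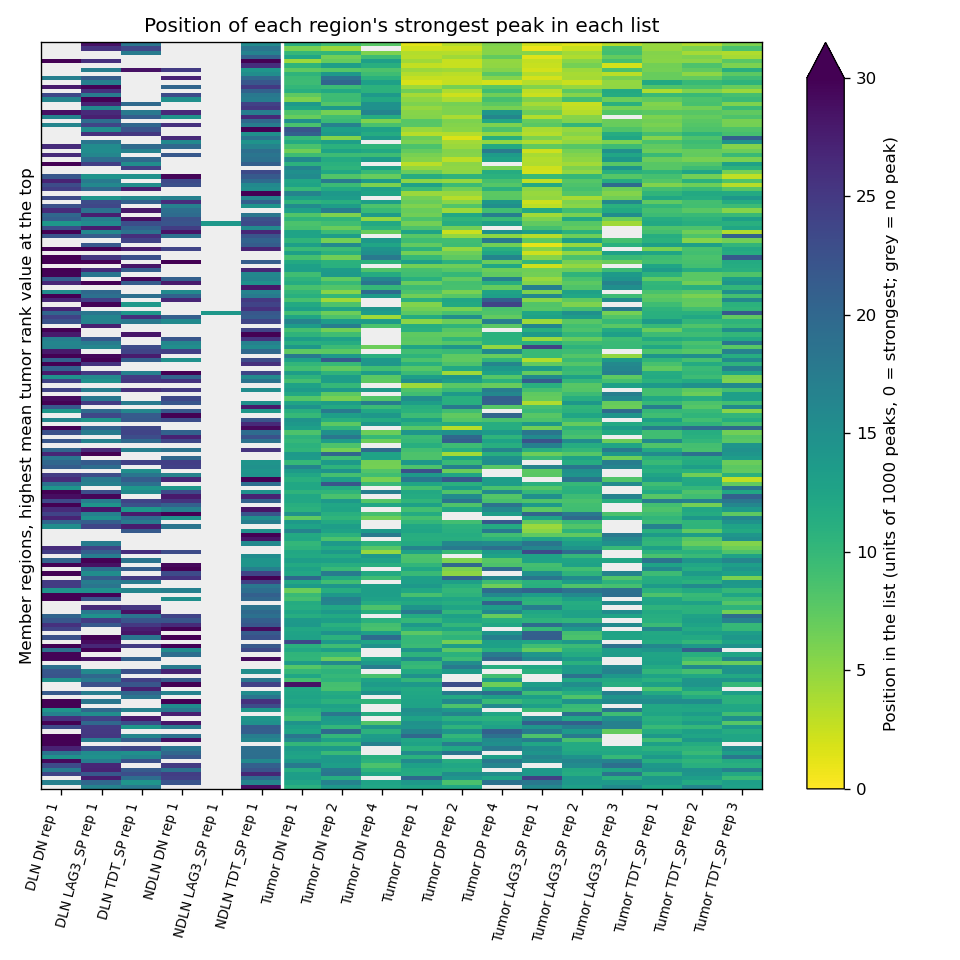
Position of the strongest overlapping peak of each member (rows) in the 18 lists (columns, 6 node lists left of the white line), in units of 1000 peaks, with grey for no peak. Tumor columns mostly lie under 14000 and node columns mostly above it, with NDLN LAG3_SP almost all grey.

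Members were not evenly shared among the tumor libraries. Of the 175, a kept peak was found in 150, 149 and 115 for DN replicates 1, 2 and 4, and in 153, 141 and 108 for DP replicates 1, 2 and 4. The LAG3_SP replicates had 130, 148 and 90, and the TDT_SP replicates 159, 158 and 129. The last library of each group was the lowest of its group, and these were the 4 shortest tumor lists used, with 19679 to 24050 peaks. A kept peak in all 12 tumor lists was found for 19 members, in 11 for 25, in 10 for 35, in 9 for 39 and in 8 for 27. Where kept, the median rank value was 0.193 to 0.228 in the DN libraries, 0.32 to 0.405 in DP, 0.326 to 0.465 in LAG3_SP and 0.265 to 0.303 in TDT_SP. By this measure DN libraries were lowest, and the ranges of DP and LAG3_SP overlapped. Over all members, with 0 where no peak was kept, the medians were 0.154, 0.176 and 0.0882 in DN. They were 0.285, 0.308 and 0.101 in DP, 0.306, 0.303 and 0.0265 in LAG3_SP and 0.246, 0.279 and 0.193 in TDT_SP. By that measure DN overlapped DP and LAG3_SP. The rule names the DN lists, so both measures are descriptions. The authors' fold ratio over local background had a median at members of 5.82 to 12.8 across tumor libraries and, in the 5 longer node lists, of 5.51 to 6.46. Fold ratios are computed within a library, so no test was made between libraries. List length ranged from 14244 to 48268 peaks over the 18 lists, and the −log10 p of peak 14000 from 4.92 in NDLN LAG3_SP to 37.4 in tumor DP replicate 1.

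The position of the members matched that of all distal regions in some respects and not in others, given here without a test. Inside a protein-coding gene lay 57.1% of them and 57.1% of all distal regions. A promoter segment was overlapped by 12.6%, against 7.46% of all distal regions and 25.8% of the 1786 distal regions kept in all 18 lists. A long noncoding RNA gene covered 12.6% of the members and 12.6% of all distal regions. Outside genes, the median distance to the nearest gene was 11.7 kb, against 19.8 kb. The median distance to the nearest kept node peak was 9.64 kb, and 31 members (17.7%) lay within 1 kb of one. Among distal regions with no kept node peak and 2 to 6 tumor lists, the median was 11.1 kb and the share 13.3%. In the wider set of 523 regions these were 13.3 kb and 13.2%. Members were found on every autosome and none on the X chromosome, which held 1.72% of distal regions. Chromosomes 7 and 11 held the most, 18 (10.3% of members, against 6.09% of distal regions) and 17 (9.71% against 5.57%). The members were nearest to 163 genes within 100 kb, and 6 members (3.43%, against 5.82% of all distal regions) lay farther than that from any protein-coding gene.

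Members were counted near genes known for T cell function and near genes of other cell types. Of 657 distal regions near a gene of 13 lists of T cell and other cell type genes, 6 were members (0.913%), which is close to the 0.931% among all distal regions. None of the 103 distal regions near the 20 exhaustion genes was a member, nor any of the 139 near naive and memory genes or the 86 near T cell identity genes. At a share of 0.931%, few members could fall in groups of this size, so these counts are not read as depletion. The 6 were near Ifng, Il10, Runx3, Egr2, Batf3 and Blk. The other cell types gave 1 member near B cell genes, of 7 distal regions, and 0 near myeloid (16 regions), melanoma (5), stroma and endothelium (5) and NK genes (25).

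Ifng encodes interferon gamma, the main effector cytokine of CD8 T cells. Its member lies 41.04 kb outside the gene at chr10:118486689-118487189. Rank values were 0, 0.045 and 0.021 in the DN libraries, 0.625, 0.517 and 0 in DP, 0.688, 0.442 and 0.289 in LAG3_SP and 0.028, 0.27 and 0.252 in TDT_SP. All 3 LAG3_SP libraries lay above all 3 TDT_SP libraries, and DP replicate 4 had no kept peak. The limma difference between LAG3_SP and TDT_SP was 0.29 (SE 0.161, adjusted p = 0.367). Node peaks were present in 5 of the 6 lists, the best at position 15763 of NDLN DN with the authors' fold ratio of 8.61.

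Il10 encodes an interleukin that restrains inflammation and is made by strongly stimulated T cells. The member at chr1:131025799-131026299, 1.08 kb outside the gene, had rank values of 0.374, 0.419 and 0.287 in DN, 0.327, 0.374 and 0.49 in DP, 0, 0.411 and 0 in LAG3_SP and 0.257, 0.209 and 0.277 in TDT_SP. It was kept in all libraries but 2 of LAG3_SP, and DN and DP overlapped. A node peak was found only in NDLN TDT_SP, at position 28067 of 35175. Among the 6 members near list genes, this was the one with the fewest node lists, 1.

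The Egr2 member lies 50.97 kb from its gene, a transcription factor induced by antigen receptor signals that also limits T cell activation. At chr10:67483250-67483750 it had 0.531, 0.098 and 0.152 in DN, 0.485, 0.599 and 0 in DP, 0.84, 0.555 and 0 in LAG3_SP and 0.516, 0.496 and 0.517 in TDT_SP. The 3 TDT_SP values were close together (mean 0.51 ± 0.0118 SD, n = 3), while the other groups spanned most of their range. Batf3, an AP-1 family factor, held a member inside the gene at chr1:191102779-191103279 with a low mean of 0.12 over the tumor libraries. Its highest value was 0.412, in LAG3_SP replicate 2.

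Runx3, a factor that sets the CD8 lineage and the cytotoxic program, had its member 11.79 kb outside the gene at chr4:135108605-135109105. Rank values were 0.466, 0.457 and 0 in DN, 0.346, 0.309 and 0 in DP, 0.3, 0.324 and 0 in LAG3_SP and 0.394, 0.437 and 0 in TDT_SP. Each group had 2 libraries with a kept peak at similar rank and no kept peak in its last library, so the 4 groups overlapped. Weaker peaks were present at position 15792 in DP replicate 4 and at 16870 in TDT_SP replicate 3.

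Blk encodes a Src family kinase best known from B cells. Its member, inside the gene at chr14:63377368-63377868, was the ninth by mean rank value and was kept in 11 tumor lists. Values were 0.314, 0 and 0.224 in DN, 0.812, 0.814 and 0.612 in DP, 0.859, 0.715 and 0.56 in LAG3_SP and 0.501, 0.485 and 0.329 in TDT_SP. DN lay below the 3 other groups and TDT_SP below DP and LAG3_SP, without overlap. Against TDT_SP the limma difference was 0.308 for DP (SE 0.117, adjusted p = 0.327) and 0.273 for LAG3_SP (SE 0.117, adjusted p = 0.248). The part of any B cells in this signal was not tested.

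The member of highest mean rank value, 0.644, lay at chr15:5695010-5695510 in a long noncoding RNA gene. The nearest protein-coding gene, Ptger4, a receptor for prostaglandin E2, is 451.07 kb away, and distance does not tell which gene a region acts on. Its rank values were 0.192, 0.327 and 0.446 in DN, 0.903, 0.765 and 0.584 in DP, 0.843, 0.896 and 0.771 in LAG3_SP and 0.672, 0.742 and 0.587 in TDT_SP. All 9 DP, LAG3_SP and TDT_SP libraries lay above all 3 DN libraries. The authors' fold ratio there reached 26.73 in LAG3_SP replicate 2, and in the nodes 8.22 in NDLN TDT_SP.

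The next members by mean rank value were near Gm4606 (0.606), Ociad1 (0.583), Sult2b1 (0.58), Gm42166 (0.575), Cth (0.545), Vrk1 (0.536) and Aplp2 (0.535), followed by Blk (0.519) and Znhit6 (0.492). Sult2b1, which adds sulfate to cholesterol, had its member 11.61 kb outside the gene at chr7:45771029-45771529. It had 0.123, 0.541 and 0.328 in DN, 0.768, 0.694 and 0.484 in DP, 0.895, 0.743 and 0.492 in LAG3_SP and 0.615, 0.574 and 0.708 in TDT_SP. DN overlapped DP and LAG3_SP there. Cth, which makes cysteine from cystathionine, lay 90.81 kb from its member at chr3:157803192-157803692. That region had 0.257, 0.06 and 0.197 in DN, 0.805, 0.822 and 0.64 in DP, 0.824, 0.549 and 0.852 in LAG3_SP and 0.545, 0.405 and 0.58 in TDT_SP. The DP, LAG3_SP and TDT_SP libraries were all above the DN libraries, and its only node peak was at position 26114 of NDLN TDT_SP. Aplp2, a relative of the amyloid precursor protein, had a member whose mean was lowest in DN (0.2 ± 0.169 SD, n = 3) and highest in LAG3_SP (0.748 ± 0.0296), with DP at 0.66 ± 0.183 and TDT_SP at 0.533 ± 0.0918. Vrk1, a nuclear kinase, had its best node peak at position 14296, just past the threshold, so its place in the set rests on that limit.

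**Figure D4:**
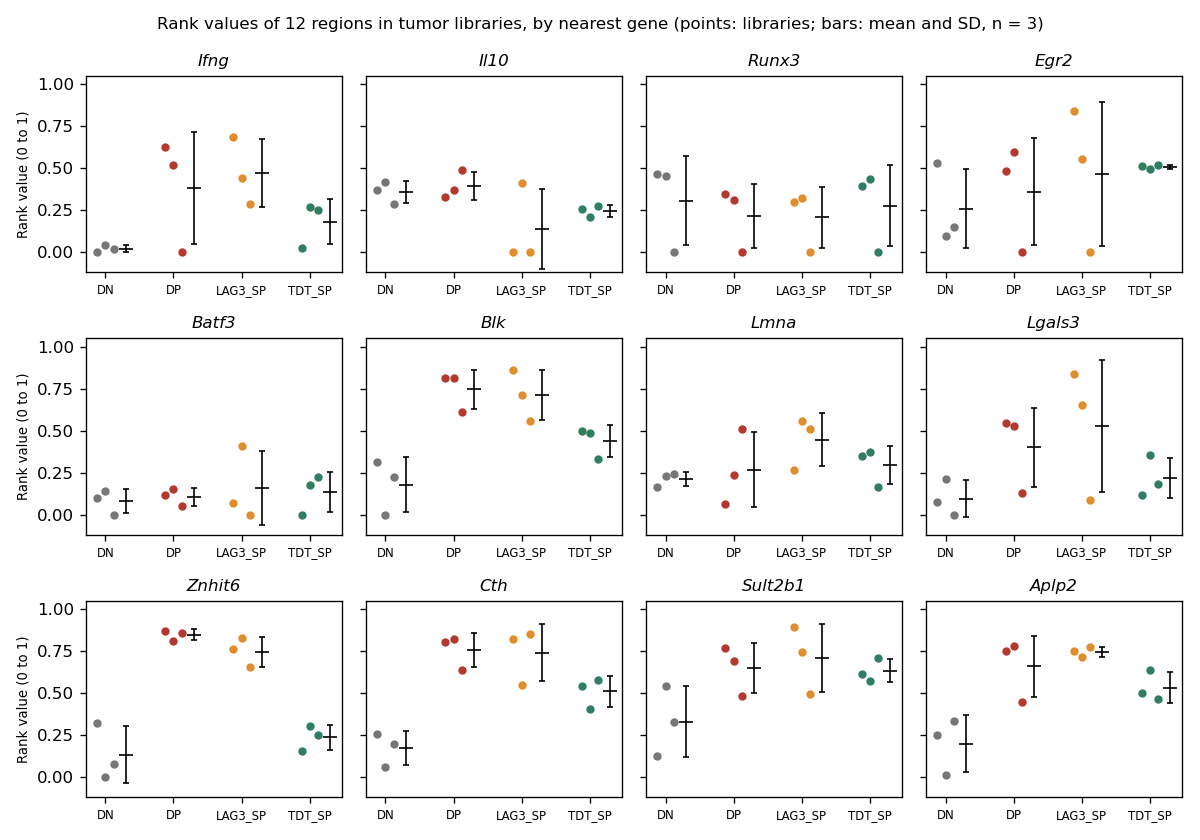
Rank values (0 to 1) of 12 members in the 12 tumor libraries, by nearest gene and sorted group, with the mean and SD of each group (n = 3). At Blk, Cth, Znhit6 and Aplp2 the DN points lie below all DP and LAG3_SP points. At Runx3 each group has 2 libraries with a kept peak and 1 at 0.

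Genes with more than 1 member were Tex14 with 3 and Auh, Lgals3, Wscd2 and Lmna with 2 each. Tex14 is known as a germ cell gene of intercellular bridges, and its 3 members lie inside the gene with mean rank values of 0.183, 0.147 and 0.133. Auh, which acts in leucine breakdown, had a member at 27.24 kb with a mean of 0.459, and the one at the Gm33315 promoter printed above with 0.252. At the Gm33315 promoter the values were 0, 0.008 and 0.214 in DN, 0.254, 0.469 and 0.505 in DP, 0.302, 0.427 and 0.651 in LAG3_SP and 0, 0 and 0.193 in TDT_SP. DP and LAG3_SP lay above TDT_SP without overlap, and limma gave 0.396 for LAG3_SP minus TDT_SP (SE 0.126, adjusted p = 0.146). At Lmna, the window of the promoter printed above had a mean of 0.272 and the other window 0.305. Both lie inside the gene and overlap an Lmna promoter segment. The Lgals1 window, with the Gm30368 promoter, was chosen for its printed sequence and had its higher mean in TDT_SP, with 0.301, 0.167 and 0.514 in TDT_SP and 0, 0.18 and 0 in LAG3_SP. LAG3_SP minus TDT_SP was −0.267 there (SE 0.143, adjusted p = 0.345), and the groups overlapped.

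Several other members lie at genes with known roles in T cells or chromatin, which were chosen here after their values were seen. Coro1a, an actin regulator needed for T cell survival, had no kept peak in any DP library. Its member had 0.245, 0.156 and 0.434 in DN and 0.076, 0.347 and 0.528 in TDT_SP, and DP minus TDT_SP was −0.317 (SE 0.125, limma adjusted p = 0.34). Cd44, the adhesion receptor that marks antigen-experienced T cells, held a member with group means of 0.135 to 0.166, so the 4 groups overlapped. Dot1l, a histone methyltransferase, had one of the higher means, 0.436, with 0.57 ± 0.172 in LAG3_SP and 0.323 ± 0.288 in DN (SD, n = 3).

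The rule counts DP, LAG3_SP and TDT_SP lists of the tumor alike, so it does not favor 1 of these groups. It did count kept peaks in these same lists, and a region absent from both other groups could not qualify, so strong differences among the 3 groups were partly removed by the choice of members. limma was fitted over 20032 regions with all 4 tumor groups, with p-values adjusted over all of them by Benjamini-Hochberg and calls made under 0.05. For DP minus LAG3_SP no member was called, and none of all regions (0%). At an unadjusted p under 0.05 there were 6 members (3.43%), against 6.03% of all regions. For DP minus TDT_SP no member was called either, against 0.0549% of all regions, and 21 members (12%) had an unadjusted p under 0.05, against 12.1%. For LAG3_SP minus TDT_SP 1 member was called, which was higher in LAG3_SP, against 0.978% of all regions called. There, 24 members (13.7%) had an unadjusted p under 0.05, against 17.8%. The median difference over members was 0.0104, 0.0128 and −0.004 in the same order, and over all regions 0.00113, −0.00626 and −0.0165. Members needed a kept peak in 7 or more of the 12 lists and the other regions in 2 or more, so these shares cannot be read as smaller or equal differences among members.

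The called member lies 13.19 kb from Znhit6, a gene for the assembly of small nucleolar RNA particles, at chr3:145618188-145618688. Rank values were 0.323, 0 and 0.078 in DN, 0.873, 0.81 and 0.861 in DP, 0.76, 0.83 and 0.653 in LAG3_SP and 0.155, 0.304 and 0.251 in TDT_SP. LAG3_SP and DP lay above TDT_SP and DN in every library. LAG3_SP minus TDT_SP was 0.511 (SE 0.108, limma adjusted p = 0.0453), and DP minus TDT_SP was 0.612 (SE 0.108, adjusted p = 0.0723). In 20 alternatives the LAG3_SP call was kept in 5, with adjusted p between 0.0268 and 1, so it is a weak call. Of the 12 fits that left out 1 library, those without DN replicate 4 (0.0463) or LAG3_SP replicate 3 (0.0268) kept it. It was lost without DN replicate 1 or 2 (0.06 and 0.0669), DP replicate 1, 2 or 4 (0.0726, 0.0565 and 0.0502), LAG3_SP replicate 1 or 2 (0.122 and 0.1) and TDT_SP replicate 1, 2 or 3 (0.14, 0.1 and 0.121). The difference itself was 0.47 to 0.559 over the 12 fits. The next 3 were chosen after their values were seen, as members that just missed the threshold. Rem2, a small GTPase gene with its member at 1.23 kb, had 0.651, 0.716 and 0.539 in LAG3_SP and 0.125, 0.188 and 0 in TDT_SP (difference 0.531, SE 0.119, limma adjusted p = 0.0557). Arsb, a lysosomal sulfatase gene, had 0.384, 0.58 and 0.437 in DP and no kept peak in TDT_SP (difference 0.467, SE 0.0754, limma adjusted p = 0.0546). Mink1, a kinase gene, was the reverse, with 0.278, 0.501 and 0.594 in TDT_SP and 0, 0.056 and 0 in LAG3_SP (difference −0.439, SE 0.105, limma adjusted p = 0.0692).

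The DN libraries were named in the rule, so the comparison of members with DN is a description. In DP minus DN 11 members passed the same threshold upward (6.29%, with 2.03% of all regions) and none downward (0.948% of all regions). In LAG3_SP minus DN again 11 did (3.11% of all regions upward and 1.53% downward), and in TDT_SP minus DN none (0.0899% upward and 0.26% downward). The members that passed in both of the first comparisons had as nearest gene Ptger4, Cth, Blk, Znhit6, Zfp541, Lilr4b, Zfp386, Myo16 or Rem2, of which Ptger4 and Zfp386 lie farther than 100 kb. Fam126a and Arsb passed for DP alone, Aplp2 and Cmbl for LAG3_SP alone, and the difference between these contrasts is the DP minus LAG3_SP comparison above, in which no member was called.

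The wider set of 523 regions left out the DN condition, and the members were 33.5% of it. It showed 74 regions higher in DP than in DN (14.1%) and 92 higher in LAG3_SP (17.6%), with none lower in either. In TDT_SP minus DN none was called, and 60 had an unadjusted p under 0.05, of which 58 were higher. Regions with peaks in DN lists alone cannot reach 7 lists, while regions with peaks in the 9 other lists alone can, so the one-sided direction is partly set by the choice and is not read as a result. The counts also fell to 0 when DN was fitted with 1 other group alone, and to 3 for DP and 2 for LAG3_SP when all peaks were ranked in place of the strongest 14000. Leaving out 1 library moved the DP count to 29 or 24 without DN replicate 1 or 2 and to 18 or 32 without DP replicate 1 or 2. For LAG3_SP it moved to 40, 36 and 60 without DN replicates 1, 2 and 4, to 38, 54 and 185 without LAG3_SP replicates 1, 2 and 3, and to 61 without TDT_SP replicate 1 or 2.

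How many regions made up the set depended on the list depth. With the strongest 10000 peaks the rule gave 110 regions, of which 21 overlapped a member. With all peaks it gave 717, of which 6 did. Leaving out the NDLN LAG3_SP library raised the number to 372, and leaving out tumor DN replicate 1 or 2 lowered it to 83 or 84, since the rule then asked for both DN lists that were left. With a kept peak required in all 12 tumor lists it was 19.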

How the data were processed

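Each library had 1 list of peaks with summits on mouse build GRCm38 (mm10). The submitters' processing notes name BWA as the aligner and MACS2 as the peak caller, without versions. The deposited lists give each peak the authors' fold ratio over background, −log10 p, −log10 q and a score, each made within 1 library. Without read counts in them, the depth of any 1 peak is unknown. Of 24 lists, 6 had under 10000 peaks and were not used by the rule. In the other 18 the strongest 14000 peaks by −log10 p were kept, and windows of 250 bp to each side were placed on summits, strongest rank first. A window had a peak when 1 bp overlapped. Rank values were compared with limma 3.58.1 in R 4.3.3 (eBayes with a trend, Benjamini-Hochberg over 20032 regions with a kept peak in 2 or more tumor lists), tested on simulated data. Python 3.11.15, pandas 2.3.3 and numpy 2.4.6 were used for the rest. Genes are the nearest of 21900 protein-coding genes of the RefSeq table, and nearness shows no regulation. Named regions were those near list genes, the 10 of highest mean rank value, genes with the most members, and called members. Others were chosen after their values or promoter letters were seen. Members and lists were chosen with earlier results of these data known. Motifs in the windows themselves were not analysed, since no genome was used here. The values of 1 member are not reported here.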

Additional observations from a re-analysis of the deposited data

Results flagged for a closer look

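The short peak lists were outside the selection, and members appeared in both short tumor lists. Of the 175 members, 5 (2.86%) had a peak among the 4603 peaks of tumor DN replicate 3 and 11 (6.29%) among the 5188 of tumor DP replicate 3. These shares were below those of all distal regions in the same lists, 4.75% and 8.46%. In the 4 short node lists, of at most 6613 peaks, no member had a peak. The longest of these, NDLN DN replicate 2, covered 13.5% of all distal regions. Those include regions with a kept node peak, which members could not have by the rule. The absence of members from the short node lists is therefore partly set by the selection. Within the strongest 3900 peaks the counts were 4 and 5, and 0 in DLN TDT_SP replicate 2 and NDLN DN replicate 2. The 11 in DP include the regions near Znhit6 (position 1749), Cth (2109), Zfp541 (2438) and Aplp2 (3397), and the 5 in DN those near Abr (1476), Dnm1 (2697) and Tdrd7 (3222). No member was in both lists. Tissue and preparation cannot be told apart here.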

How the results depend on the processing

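The number of members (175) was within 1.5 times under narrower or wider windows, summit overlap, ranking by fold ratio, 9 tumor lists and 5 kb from gene ends. By fold ratio the regions themselves changed, with 97 of 187 overlapping a member. It moved to 110 with the strongest 10000 peaks, 717 with all peaks, 19 with all 12 tumor lists, 523 without the DN condition and 6 without any node peak, the last chosen after seeing the data. Leaving out 1 library gave 83 to 372. Members called were 0 for DP minus LAG3_SP (1 by presence or absence, 0 to 0 without 1 library). For DP minus TDT_SP there were 2 with no filter, 1 with the top 10000, 1 by presence and 0 to 2 without 1 library. For LAG3_SP minus TDT_SP there were 2 with no filter, 0 with the replicate block, 0 with the 2 groups alone, 0 with all peaks, 0 by fold ratio, 2 by presence and 0 to 4 without 1 library. In the wider set, DP minus DN gave 0 with the 2 groups alone, 14 with the top 10000, 3 with all peaks, 14 by fold ratio, 139 by presence and 18 to 110 without 1 library. LAG3_SP minus DN gave 58 with the replicate block, then 0, 26, 2 and 19 in that order, and 36 to 185 without 1 library. TDT_SP minus DN gave 1 with no filter, 47 by presence and 0 to 2 without 1 library. The causes were not tested.

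Replicate numbers were not taken as pairs, since not every same-number correlation passed 0.1. They ran from 0.0231 to 0.278 (median 0.117), against −0.283 to 0.37 (median −0.138) for other numbers, and 3 of 12 libraries correlated best with their own number. DN replicate 4, DP replicate 4, LAG3_SP replicate 3 and TDT_SP replicate 3 correlated with each other (0.222 to 0.37) and negatively with the remaining libraries of other groups. The main fit had no term for these libraries as a set, and the replicate block, made by number, split them. The spread within groups that limma used therefore includes this difference. With 14244 peaks, the NDLN LAG3_SP list cannot show weaker peaks at members.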
